A study of Mus musculus with 8 samples.

Results

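The stress-responsive genes of the secreted hormones GDF15, FGF21 and ADM2 (Gdf15, Fgf21 and Adm2) were followed together with the related peptide gene Adm and the receptor components Calcrl, Ramp1, Ramp2, Ramp3, Fgfr1 and Klb, which are 10 of the 32285 genes counted in single-nucleus RNA sequencing (snRNA-seq) of the mouse heart. The genes were taken by symbol, and each was found in the files. Whole hearts of 4 male WT mice (mice 4686, 4909, 5355 and 5356) and of 4 male Taz-KO mice (mice 4685, 4910, 5300 and 5301) were taken at 9 weeks of age, minced and cryopreserved, and 1 library was made from the nuclei of each heart. Taz is the gene of tafazzin, which exchanges fatty acid chains of cardiolipin, the characteristic lipid of mitochondria, and mutations of the human gene underlie Barth syndrome. The labels give the genotype as WT or KO, and the strain and the form of the knockout allele are not given in the sources used here.

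GDF15 is a distant member of the TGF-beta family that acts on the brain stem through GFRAL and its co-receptor RET, and it is known for reducing food intake. FGF21 is an endocrine fibroblast growth factor whose signal needs an FGF receptor such as FGFR1 together with beta-klotho, the product of Klb. ADM2 (intermedin) and adrenomedullin, the product of Adm, are vasoactive peptides of the calcitonin family, and both act on the receptor encoded by Calcrl, whose choice of ligand depends on the accessory protein RAMP1, RAMP2 or RAMP3. Gdf15, Fgf21 and Adm2 are known targets of the integrated stress response, in which the transcription factor ATF4 is translated when eIF2 is phosphorylated.

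On GRCm38, the mouse build of the files, Gdf15 lies on chromosome 8 from 70629393 to 70632456 on the minus strand, Fgf21 on chromosome 7 from 45613886 to 45615490 on the minus strand, and Adm2 on chromosome 15 from 89322720 to 89324731 on the plus strand (GENCODE annotation). Because these hormone genes differed together between the genotypes, the 250 bases before a start of each gene are shown here, 5′ to 3′ on the strand of the gene, as RefSeq gives them on GRCm38.p6. Capitals mark the only match found to the motifs searched. Of the 2 starts listed for Gdf15 the first is shown, and the window of the second, chr8:70632096-70632345, held no match. The Gdf15 window is chr8:70632457-70632706, the Fgf21 window chr7:45615491-45615740 and the Adm2 window chr15:89322470-89322719.
Gdf15: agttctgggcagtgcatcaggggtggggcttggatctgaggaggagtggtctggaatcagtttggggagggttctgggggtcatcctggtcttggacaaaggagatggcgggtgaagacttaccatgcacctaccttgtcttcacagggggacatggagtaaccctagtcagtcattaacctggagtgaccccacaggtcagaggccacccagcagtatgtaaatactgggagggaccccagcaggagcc
Fgf21: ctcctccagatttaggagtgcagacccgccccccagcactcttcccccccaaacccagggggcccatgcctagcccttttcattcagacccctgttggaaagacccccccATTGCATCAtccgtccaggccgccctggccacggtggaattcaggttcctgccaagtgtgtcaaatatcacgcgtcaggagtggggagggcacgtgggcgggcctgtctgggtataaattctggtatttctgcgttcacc
Adm2: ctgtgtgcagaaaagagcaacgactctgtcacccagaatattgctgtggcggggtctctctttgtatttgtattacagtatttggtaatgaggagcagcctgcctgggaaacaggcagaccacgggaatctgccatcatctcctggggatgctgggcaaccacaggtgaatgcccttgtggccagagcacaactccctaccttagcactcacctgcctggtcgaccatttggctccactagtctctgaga
Searched on both strands were TGATGNAAN (N for any base), the composite element bound by ATF4 with a C/EBP partner, TGACGTCA, the cyclic AMP response element, and the endoplasmic reticulum stress element, CCAAT and CCACG with 9 bases between them. The Fgf21 window held ATTGCATCA, which is the first motif read on the opposite strand, at bases -140 to -132 from the start, and the Gdf15 and Adm2 windows held none of these letters. Of the 10 genes, 8 had a promoter in the table used (Ramp2 and Fgfr1 had none), and the other match was TGATGTAAC in the Calcrl window at -75 to -67. The first motif was present in 3.44% of all 32851 promoters of this length, the second in 1.55% and the third in 0.113%. A match is a description of letters and not a site of binding.

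The 8 libraries held 169193 barcodes with 20025456 to 348080773 UMIs per library (unique molecular identifiers, each standing for 1 captured RNA molecule). Nuclei were typed by marker genes, and 77343 nuclei fell into 11 named classes, of which cardiomyocytes (34433 nuclei, typed by Ryr2 and Ttn), fibroblasts (14609, Pdgfra and Bicc1), endothelial cells (7088, Ptprb and Flt1) and macrophages (8878, F13a1 and Mrc1) are the main ones. The 6 further markers kept for checking each main class were highest in their own class in all 48 comparisons of marker and library. They were above the level in the lowest-UMI 10% of barcodes in 43 of 48 comparisons for cardiomyocytes, in 36 of 48 for fibroblasts and in all 48 for endothelial cells and for macrophages. Taz-KO mice 4685 and 5301 stood apart, with 507 and 1851 typed nuclei against 9885 to 19326 in the other libraries, and in mouse 5301 only 1.57% of UMIs were mitochondrial against 7.01% to 23.7% elsewhere. Of the distinct barcodes, 1.99% occurred in more than 1 library. Levels below are UMIs per 1000000 non-mitochondrial UMIs (CPM) of a class in a mouse. In cardiomyocytes Taz itself was at 47.5 to 53.2 CPM in WT and at 28 to 45 CPM in Taz-KO mice, a log2 difference of -0.61 (SE 0.18, edgeR adjusted p = 0.0478). Since the deleted part of the gene is not given in the sources used here, the remaining 3′ tags neither check nor contradict the labels.

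In cardiomyocytes Gdf15, Fgf21 and Adm2 were higher in Taz-KO than in WT hearts, and in each of them the 4 mice of the 2 genotypes did not overlap. The share of all genes that do not overlap was not counted, and 5214 of the 19228 genes tested there had an unadjusted edgeR p below 0.05. Gdf15 measured 0.449, 0.819, 1.25 and 0.347 CPM in WT mice 4686, 4909, 5355 and 5356. In Taz-KO mice 4685, 4910, 5300 and 5301 it measured 39.6, 29.3, 49.4 and 14.3 CPM. The lowest Taz-KO value was that of mouse 5301, and it still lay above all WT values. Over the summed UMIs of each genotype (178 in WT and 6568 in Taz-KO), the level was 48.5-fold higher, with a 95% interval for counting error only of 41.8 to 56.6. The log2 fold-change between mice was 5.41 (SE 0.42, edgeR adjusted p = 2.40e-05, n = 4 per genotype).

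Fgf21 was close to absent from WT cardiomyocytes, with 0, 2, 1 and 0 UMIs in mice 4686, 4909, 5355 and 5356. Taz-KO mice 4685, 4910, 5300 and 5301 had 21, 529, 405 and 6 UMIs, which is 3.94, 4.15, 7.95 and 0.8 CPM. As with Gdf15, mouse 5300 was highest and mouse 5301 lowest. The ratio of the pooled levels was 421, with a counting interval of 144 to 2045 that is wide because it rests on 3 WT UMIs. The fitted log2 fold-change was 8.14 (SE 0.73, edgeR adjusted p = 4.02e-05). It was 8.81 without WT mouse 4909 and 7.21 with a share of 0.2 of each sum subtracted as ambient RNA, and was called in both.

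Adm2 had 0 UMIs in the cardiomyocytes of all 4 WT mice and 14, 375, 201 and 20 UMIs in those of Taz-KO mice 4685, 4910, 5300 and 5301. The corresponding levels were 2.63, 2.94, 3.95 and 2.67 CPM. These levels lay closer together than those of Gdf15 or Fgf21, and mouse 5301 was within the range of the other Taz-KO mice. Against the limit of 3 counts over the WT group, Adm2 was at least 267-fold higher in Taz-KO cardiomyocytes. The fit gave an edgeR adjusted p of 1.75e-05. Both Fgf21 and Adm2 passed the filter on low counts through the Taz-KO mice, so passing it and differing were not independent.

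**Figure D1:**
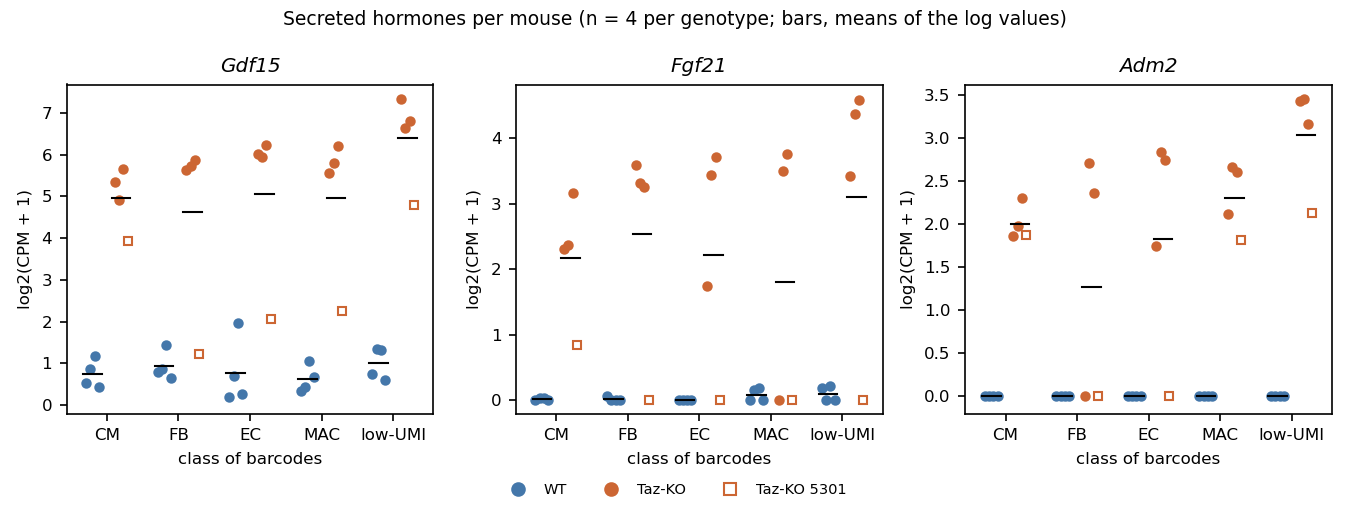
Levels of Gdf15, Fgf21 and Adm2 as log2(CPM + 1) in each mouse, in cardiomyocytes (CM), fibroblasts (FB), endothelial cells (EC), macrophages (MAC) and the lowest-UMI 10% of barcodes, with WT in blue, Taz-KO in orange, mouse 5301 as open squares and bars at the mean of the log values. Taz-KO cardiomyocytes reach 14.3 to 49.4 CPM of Gdf15 against at most 1.25 CPM in WT, and mouse 5301 falls to 1.34 CPM in fibroblasts.

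All 10 genes passed the filter in cardiomyocytes, where 3 were called higher and 1 lower at an adjusted p below 0.05. Among all 19228 genes tested there, 7.71% were called higher and 5.74% lower. The gene called lower was Ramp1. Without mice 4685 and 5301 the log2 fold-changes in cardiomyocytes were 5.60 for Gdf15, 8.61 for Fgf21 and 10.82 for Adm2, and all 3 genes were still called. The value of Adm2 is not a measured fold, because it depends on the prior count where WT mice had no UMI.

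**Figure D2:**
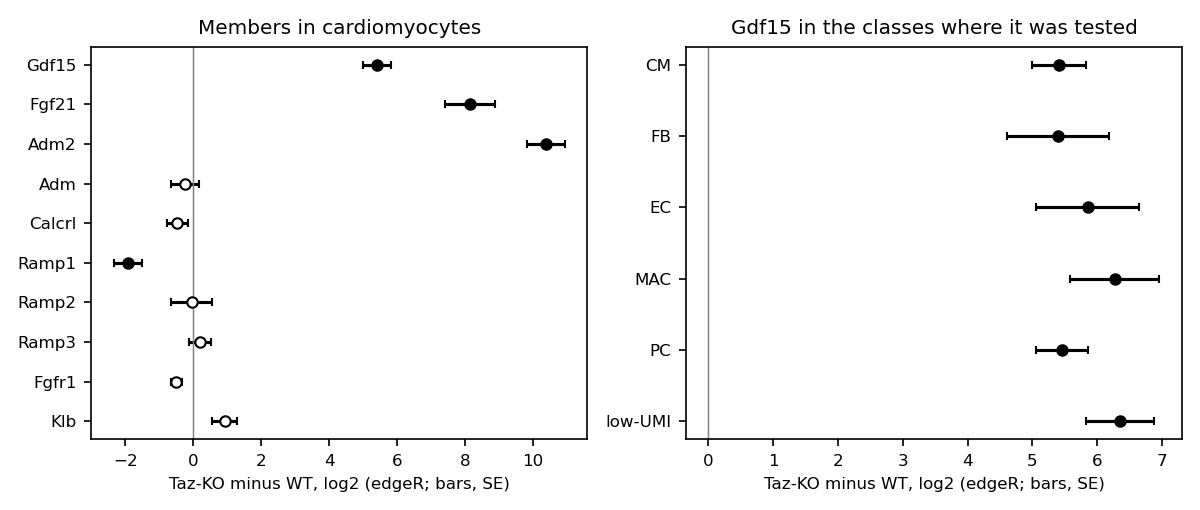
Log2 fold-change between Taz-KO and WT mice with its SE (edgeR), for the 10 genes in cardiomyocytes on the left and for Gdf15 in the classes where it was tested on the right (PC, pericytes), with filled points at an adjusted p below 0.05. Gdf15 (5.41), Fgf21 (8.14) and Adm2 lie far to the right and Ramp1 (-1.93) to the left, and the fitted value of Adm2 depends on the prior count because WT mice had no UMI.

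The hormone RNAs were also found outside cardiomyocytes. In Taz-KO mice 4685, 4910, 5300 and 5301 Gdf15 measured 48.7, 52.3, 57.1 and 1.34 CPM in fibroblasts. In endothelial cells of the same mice it measured 63.6, 60.9, 74.2 and 3.18 CPM, and in macrophages 46.4, 54.3, 73.1 and 3.78 CPM. In 3 of the Taz-KO mice these levels were therefore above those of the cardiomyocytes of the same heart, whereas in mouse 5301 they were 0.0942 to 0.265 times the cardiomyocyte level. WT values were at most 1.7 CPM in fibroblasts, 2.94 CPM in endothelial cells and 1.09 CPM in macrophages, and only the fibroblasts of mouse 5301 overlapped with them. The values of mouse 4685 rest on 44, 27 and 14 UMIs in fibroblasts, endothelial cells and macrophages. Its fibroblasts and macrophages, at 1.23 and 1.17 times its cardiomyocyte level, are not set apart from its cardiomyocytes by such counts. The values of mouse 5301 rest on 2, 2 and 3 UMIs in these classes. They are too few to set its endothelial cells apart from WT, and its ratios to cardiomyocytes rest on the same counts. The log2 fold-change of Gdf15 was 5.39 in fibroblasts (SE 0.79, edgeR adjusted p = 0.0352), 5.85 in endothelial cells (SE 0.80, adjusted p = 0.0218) and 6.27 in macrophages (SE 0.69, adjusted p = 0.00414). The share of all genes called higher was 0.251%, 0.12% and 0.282% in these classes. Of the 4 WT mice, 2, 3 and 4 lay below the limit of the filter on low counts in these classes (0.828, 2.12 and 1.45 CPM), so Gdf15 was tested because of its Taz-KO counts, and these p-values are no independent support.

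The calls in fibroblasts, endothelial cells and macrophages depended on the processing. With a share of 0.2 of each sum subtracted as ambient RNA, neither Gdf15 nor Adm2 passed the filter in macrophages, where 1 gene of 14693 was then called. Leaving out single mice raised the adjusted p above 0.05 for 6 of the 8 mice in fibroblasts (up to 0.154) and for 5 of the 8 in endothelial cells (up to 0.126). Without Taz-KO mouse 5301 the adjusted p was lower, at 2.13e-05 in fibroblasts and 8.12e-04 in endothelial cells. Pericytes, the mural cells of capillaries, were the other class in which Gdf15 could be tested, with 18.8 to 74.5 CPM in Taz-KO and 0.715 to 1.54 CPM in WT mice (log2 fold-change 5.45, SE 0.40, edgeR adjusted p = 9.81e-05). The 18.8 CPM was that of mouse 5301, from 7 UMIs, and lay above the 14.3 CPM of its cardiomyocytes. Each of its remaining named classes had at most 3 Gdf15 UMIs and a lower level than its cardiomyocytes. All WT mice were below the limit of the filter in pericytes too, and 0.144% of all genes were called higher. Gdf15 was called there in all 16 alternatives that gave a value, at a log2 fold-change of 5.10 to 5.71. It entered those fits through its Taz-KO counts or without a filter, so they are no independent support.

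Adm2 was called in 1 further class, the macrophages, at 0 UMIs in WT and at 3.32, 5.31, 5.09 and 2.52 CPM in Taz-KO mice 4685, 4910, 5300 and 5301 (edgeR adjusted p = 0.0049). The values of mice 4685 and 5301 rest on 1 and 2 UMIs, and here too the gene passed the filter through the Taz-KO mice. Pooled over mice, Adm2 was at least 47.8-fold higher in Taz-KO macrophages, at least 106-fold higher in fibroblasts and at least 42.9-fold higher in endothelial cells. The last 2 had no test in the main fit because the gene did not pass the filter there. Taz-KO mice 4685, 4910, 5300 and 5301 had 0, 75, 17 and 0 Adm2 UMIs in fibroblasts and 1, 61, 15 and 0 in endothelial cells, so these bounds rest mostly on mouse 4910. Under the main filter Fgf21 was tested in cardiomyocytes alone. In the fibroblasts of Taz-KO mice 4685, 4910, 5300 and 5301 it measured 11.1, 8.92, 8.51 and 0 CPM, against 1 UMI in all WT fibroblasts. The hormones did not pass the main filter in lymphatic endothelial cells, smooth muscle cells, adipocytes or mesothelial cells. Settings that left out 1 or more mice or the filter itself let Gdf15 into fits in these classes and Fgf21 into fits outside cardiomyocytes. Most of those fits called the gene, but it entered them through its Taz-KO counts or without a filter, so the calls are no independent test. With the same limit, Adm2 was called in 4 of 7 alternatives in endothelial cells, 4 of 7 in pericytes and 1 of 2 in fibroblasts. It was called in the 1 alternative in lymphatic endothelial cells, but not in the 1 each in smooth muscle cells, adipocytes and mesothelial cells. Under the main filter, of the 10 genes, 4, 5, 4 and 4 were tested in these classes, none of them a hormone, and none was called by edgeR or by DESeq2 or had an unadjusted p below 0.05. Of all genes, 0.0887%, 0.0754%, 0.0972% and 0.0713% were called there by edgeR.

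In Taz-KO mice Gdf15 was higher in the barcodes with least RNA than in the main classes. In the lowest-UMI 10% of each library (16917 barcodes, which hold free RNA and the weakest nuclei), Gdf15 measured 159, 97.7, 111 and 26.9 CPM in Taz-KO mice 4685, 4910, 5300 and 5301 and 0.525 to 1.53 CPM in WT mice (log2 fold-change 6.35, SE 0.52, edgeR adjusted p = 3.64e-04, where 0.644% of genes were called higher), and it passed the filter through the Taz-KO mice. Adm2 measured 9.75, 9.91, 7.92 and 3.36 CPM in the same Taz-KO barcodes and had no UMI in WT (edgeR adjusted p = 0.00138), with the same limit. Fgf21 measured 9.75, 19.7, 23.1 and 0 CPM there against at most 0.168 CPM in WT. For Fgf21 these barcodes were not highest in mouse 4685, whose fibroblasts had 11.1 CPM, or in mouse 5301, whose cardiomyocytes had 0.8 CPM. In every Taz-KO mouse Gdf15 was lower in each of the 4 main classes than in these barcodes, at 0.249 to 0.531 times their level in cardiomyocytes and 0.05 to 0.669 times in the other 3 classes. In mouse 5301 none of the 557 barcodes of this kind reached the 800 UMIs asked of a nucleus. Their median was 562 UMIs there and 2310 to 6773 UMIs in the other libraries. Of the 16917 barcodes, 2391 were also typed by markers, so they are not fully separate from the classes.

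Cardiomyocyte markers were measured beside Gdf15 in the same sums. Myh6, Mybpc3, Tnnt2, Actn2, Trdn and Rbm20, the 6 check markers that the typing did not use, had in the fibroblasts of mouse 4910 a summed level of 31% of that in its cardiomyocytes, while Gdf15 was at 178% of its cardiomyocyte level. In the lowest-UMI 10% of that mouse, which was not chosen by markers, they were at 59.1% and Gdf15 at 334%. In the fibroblasts of mouse 5301 the markers were at 8.83% and Gdf15 at 9.42% (2 UMIs). The values were 10.1% and 22.3% (2 UMIs) in its endothelial cells and 10.4% and 26.5% (3 UMIs) in its macrophages. In its lowest-UMI 10% they were 45.8% and 188% (8 UMIs). Counts of 2 or 3 UMIs cannot tell whether Gdf15 lay close to the markers or apart from them. The typing itself lowers cardiomyocyte markers in the other classes, and the part of free RNA in these levels was not tested directly. Mouse 5301 also had the lowest mitochondrial share in fibroblasts, 2.68% of UMIs against 7.09% to 26.9% in the other Taz-KO mice. When the part of each sum that the mitochondrial UMIs assign to free RNA was subtracted (a median of 67% in fibroblasts and 28.9% in cardiomyocytes, an alternative chosen after seeing the data), Gdf15 no longer passed the filter in fibroblasts, endothelial cells or macrophages. In these classes none of the 12283, 10116 and 12270 genes left was called by edgeR (913, 470 and 825 had an unadjusted p below 0.05), so nothing particular to Gdf15 can be read from the loss. In cardiomyocytes it remained called at a log2 fold-change of 4.60 (edgeR adjusted p = 2.98e-04), as did Adm2 (adjusted p = 0.00204), while Fgf21 no longer passed the filter.

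The proportion of Adm2 to Gdf15 RNA lay close together across the classes of mice 4910 and 5300. For each 100 Gdf15 UMIs, the cardiomyocytes of mouse 4910 had 10 Adm2 UMIs. Its fibroblasts had 10.6, its endothelial cells 10.1, its macrophages 9.79 and its lowest-UMI 10% 10.1. In mouse 5300 the same ratio ran from 6.96 in macrophages to 7.99 in cardiomyocytes. Fgf21 per 100 Gdf15 UMIs was 14.2 in cardiomyocytes and 20.2 in the lowest-UMI 10% of mouse 4910, and 16.1 and 20.8 in mouse 5300. It ran the other way in mouse 4685, at 9.95 and 6.14 from 21 and 7 Fgf21 UMIs, and in mouse 5301, at 5.61 and 0. Adm2 per 100 Gdf15 UMIs ran from 0 to 7.14 across the classes of mouse 4685, with at most 1 Adm2 UMI in each main class but the cardiomyocytes. Mouse 5301 differed from mice 4910 and 5300, with 18.7 Adm2 UMIs and 5.61 Fgf21 UMIs per 100 Gdf15 UMIs in cardiomyocytes, from 20 and 6 UMIs. Cardiomyocytes held 57.5%, 56.6%, 63.6% and 86.3% of the Gdf15 UMIs in the named nuclei of mice 4685, 4910, 5300 and 5301, and 69.1%, 70.4%, 70.9% and 64.8% of all UMIs in them. The share of Gdf15 was thus below the share of all RNA in 3 mice and above it in mouse 5301, where its Wilson interval was 79.1% to 91.3%.

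**Figure D3:**
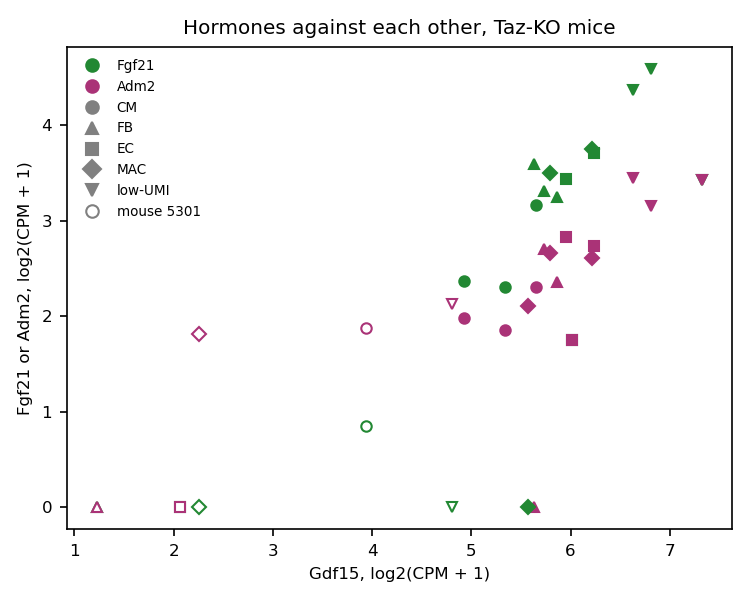
Fgf21 (green) and Adm2 (purple) against Gdf15, all as log2(CPM + 1), in the Taz-KO mice, with 1 point for each mouse and class (shapes) and mouse 5301 as open symbols. In mice 4910 and 5300 the points of a gene rise with Gdf15 from cardiomyocytes to the lowest-UMI 10%, where Gdf15 is at 97.7 and 111 CPM.

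The size of the genotype effect was compared between classes in 1 fit of the 4 main classes with the mouse as a block. The effect on Gdf15 in cardiomyocytes minus that in fibroblasts was 0.25 on the log2 scale (SE 0.50, edgeR adjusted p = 0.891). Against endothelial cells the difference was -0.32 (SE 0.67, adjusted p = 0.914) and against macrophages -0.92 (SE 0.69, adjusted p = 0.49), so that none was larger than its error allowed to be called. For Adm2 no such difference could be estimated, because WT mice had no UMI in any of these classes, and for Fgf21 the SE was 1.28 or more. None of the genes with an estimate was called in the 3 comparisons (edgeR), in which 4.55%, 2.81% and 4.01% of all genes were called. At an unadjusted p below 0.05 there were 2 against fibroblasts (Ramp1 and Klb), 1 against endothelial cells (Calcrl) and 1 against macrophages (Ramp1). Averaged over both genotypes, the level of Gdf15 in cardiomyocytes was 0.05 above the mean of the other 3 classes on the log2 scale (SE 0.19, edgeR adjusted p = 0.837).

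Within Taz-KO cardiomyocytes the levels of the other hormones overlapped between the nuclei with and without a Gdf15 UMI. In mouse 4910, Fgf21 measured 4.27 CPM (exact Poisson interval 3.7 to 4.9, counting error only) in the 2838 nuclei with a Gdf15 UMI and 4.08 CPM (3.65 to 4.55) in the 5806 nuclei without one. In mouse 5300 the values were 8.01 CPM (6.76 to 9.43) and 7.92 CPM (6.99 to 8.94). Adm2 measured 2.99 and 2.91 CPM in mouse 4910 and 3.37 and 4.26 CPM in mouse 5300, with intervals that overlapped. The intervals also overlapped in mice 4685 and 5301, which had 21 and 6 Fgf21 UMIs. Nuclei with a Gdf15 UMI were deeper, with a median of 14745 against 12706 UMIs in mouse 4910. That mouse had 3735 Gdf15 UMIs over its 8644 cardiomyocytes, so a nucleus without one may still hold Gdf15 RNA that was not captured. The split therefore cannot tell whether the hormones vary together between nuclei.

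Adm, the gene of adrenomedullin, was not called between the genotypes. In cardiomyocytes it measured 5.82, 8.7, 5.85 and 2.66 CPM in WT mice 4686, 4909, 5355 and 5356 and 4.88, 5.03, 9.62 and 1.2 CPM in Taz-KO mice 4685, 4910, 5300 and 5301. The groups overlapped, and the log2 fold-change was -0.24 (SE 0.42, edgeR adjusted p = 0.779), which turned to 0.15 without mice 4685 and 5301. Adm was not called in any other class where it was tested. Among the named classes its level was highest in fibroblasts, at 27.3 ± 6.74 CPM (SD, n = 4) in WT and 22.3 ± 6.74 CPM in Taz-KO mice. In WT mice the fibroblasts lay above all values of the next class, the lymphatic endothelial cells at 13.2 ± 1.45 CPM, whereas in Taz-KO mice these neighbours overlapped. The lowest-UMI 10% held 21.2 ± 5.58 CPM of Adm in WT and 17.5 ± 12.6 CPM in Taz-KO mice and overlapped with the fibroblasts in both genotypes. Within a mouse it was below the fibroblasts in all but mouse 4685 (19.5 against 15.5 CPM). Over both genotypes Adm was 1.38 above the mean of the other main classes in fibroblasts (SE 0.12, edgeR adjusted p = 9.34e-11) and 1.19 below it in cardiomyocytes, a log2 difference of -1.19 (SE 0.13, adjusted p = 1.74e-09). Such level differences are common, with 81.8% of all genes called for cardiomyocytes and 58.1% for fibroblasts, and with 54.9% for endothelial cells and 47.5% for macrophages.

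Calcrl, the receptor shared by ADM2 and adrenomedullin, was highest in endothelial cells. In WT endothelial cells it measured 666, 517, 581 and 573 CPM in mice 4686, 4909, 5355 and 5356, and in Taz-KO endothelial cells 1008, 703, 489 and 653 CPM in mice 4685, 4910, 5300 and 5301. Lymphatic endothelial cells followed at 494 ± 117 CPM in WT (SD, n = 4) and overlapped with endothelial cells, and both lay above all other classes, the next being fibroblasts at 215 ± 41.2 CPM. Cardiomyocytes had 44.1 to 65.7 CPM in WT and 13.6 to 63.1 CPM in Taz-KO mice, below the 183 to 227 CPM of the lowest-UMI 10%. The level in endothelial cells was 2.28 above the mean of the other main classes on the log2 scale (SE 0.12, edgeR adjusted p = 4.40e-15), and that in cardiomyocytes differed by -2.18 (SE 0.15, adjusted p = 1.33e-13). No genotype difference of Calcrl was called, with a log2 fold-change of 0.22 in endothelial cells (SE 0.23, adjusted p = 1) and of -0.47 in cardiomyocytes (SE 0.30, adjusted p = 0.361).

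The 3 accessory proteins differed in where their transcripts were found. Ramp2, whose product with the Calcrl receptor gives the main adrenomedullin receptor, measured 83.7 ± 9.79 CPM in WT endothelial cells and 81.6 ± 15 CPM in WT lymphatic endothelial cells, which did not separate. Endothelial cells did not separate from the lowest-UMI 10% either, which held 79.7 ± 17.2 CPM in WT. In Taz-KO mice the means were 123 CPM in endothelial cells and 122 CPM in the lowest-UMI 10%. Its level in endothelial cells was 1.22 above the mean of the other main classes (log2, SE 0.14, edgeR adjusted p = 2.50e-08). The Ramp2 gene overlaps Vps25 on the same strand, which makes its count uncertain. Ramp3 was also highest in endothelial cells, at 14.6 ± 3.3 CPM in WT and 16.8 ± 3.48 CPM in Taz-KO mice, above all values of the next class in both genotypes and 2.06 above the other main classes (log2, SE 0.13, adjusted p = 4.88e-13). Neither Ramp2 nor Ramp3 was called between the genotypes in any class tested.

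Ramp1, whose product turns the same receptor into that for calcitonin gene-related peptide, was lower in Taz-KO cardiomyocytes. It measured 4.24, 8.52, 4.83 and 10.4 CPM in WT mice 4686, 4909, 5355 and 5356. In Taz-KO mice 4685, 4910, 5300 and 5301 it measured 2.06, 2.64, 2.4 and 0.534 CPM. Every Taz-KO mouse lay below every WT mouse, and mouse 5301 was lowest. The share of all genes that separate in this way was not counted. The log2 fold-change was -1.93 (SE 0.41, edgeR adjusted p = 0.0108), and it was called under all 17 alternatives that gave a value, between -3.29 and -1.58. Without mice 4685 and 5301 it was -1.64 (adjusted p = 0.0396). In the other classes tested the log2 fold-change was between -0.70 and -0.50 and was not called. The difference from the effect in macrophages was -1.30 (SE 0.44, adjusted p = 0.0943), so that an effect particular to cardiomyocytes was not shown. The level was highest in WT smooth muscle cells, at 38.3 ± 13.9 CPM (SD, n = 4), which overlapped with T lymphocytes at 22.8 ± 8.3 CPM.

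Fgfr1, a receptor of FGF21, was highest in fibroblasts, at 279 ± 42.5 CPM in WT and 269 ± 28.4 CPM in Taz-KO mice (SD, n = 4 each). WT macrophages followed at 196 ± 64.8 CPM and overlapped with the fibroblasts. The level differed from the mean of the other main classes by 1.55 in fibroblasts and 0.77 in macrophages and by -0.80 in endothelial cells and -1.51 in cardiomyocytes on the log2 scale, each with an SE of 0.08 to 0.10 and each called by edgeR. In cardiomyocytes Fgfr1 measured 55.8, 56.7, 52.8 and 36 CPM in WT mice 4686, 4909, 5355 and 5356 and 44.7, 35.9, 50 and 23.5 CPM in Taz-KO mice 4685, 4910, 5300 and 5301. The groups overlapped, and the log2 fold-change of -0.50 (SE 0.17, edgeR adjusted p = 0.0806) did not pass the threshold.

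Klb, which encodes the co-receptor that FGF21 needs, was highest in adipocytes. WT adipocytes had 15.6, 67.2, 96.1 and 185 CPM in mice 4686, 4909, 5355 and 5356, and Taz-KO adipocytes had 40.2, 45.4 and 139 CPM in mice 4910, 5300 and 5301. Mouse 4685 gave no value because it had 3 adipocytes. All of these values lay above those of the next class in both genotypes, which in WT were smooth muscle cells at up to 4.41 CPM. Between the genotypes Klb in adipocytes did not differ beyond its spread (log2 fold-change -0.52, SE 0.70, edgeR adjusted p = 0.875). In cardiomyocytes Klb measured 1.2, 0.707, 1.65 and 0.821 CPM in WT mice and 1.31, 1.69, 2.69 and 3.07 CPM in Taz-KO mice, in the same order of mice. The ranges overlapped by mouse 4685, and the log2 fold-change of 0.92 (SE 0.37, adjusted p = 0.13) was not called. Over both genotypes Klb was 1.07 above the mean of the other main classes in cardiomyocytes (log2, SE 0.18, adjusted p = 3.84e-06).

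**Figure D4:**
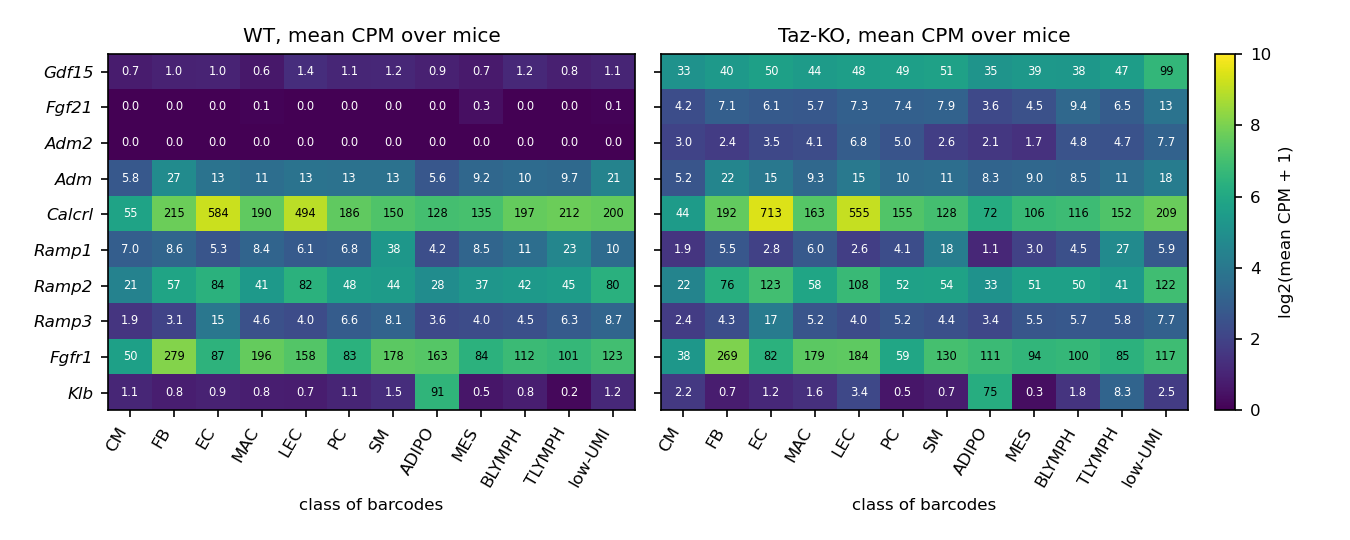
Mean level of the 10 genes over the mice of each genotype, as log2(mean CPM + 1) by colour and as CPM in each cell, in the 11 named classes and the lowest-UMI 10% (LEC, lymphatic endothelial cells; SM, smooth muscle cells; ADIPO, adipocytes; MES, mesothelial cells; BLYMPH and TLYMPH, lymphocytes). The 3 hormone rows are higher in Taz-KO than in WT in every column, while Calcrl stays highest in EC and LEC, Fgfr1 in FB and Klb in ADIPO.

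Transcripts of ligand and receptor components can be set side by side in the same hearts. In Taz-KO mice 4910 and 5300, endothelial cells held 703 and 489 CPM of Calcrl, 98.6 and 115 CPM of Ramp2 and 18.8 and 13.6 CPM of Ramp3, and Adm2 was at 6.13 and 5.68 CPM in the same endothelial cells and at 2.94 and 3.95 CPM in cardiomyocytes. In mice 4685 and 5301 Adm2 had the opposite order, at 2.36 and 0 CPM in endothelial cells, from 1 and 0 UMIs, and at 2.63 and 2.67 CPM in cardiomyocytes. For FGF21, fibroblasts of mice 4910 and 5300 held 8.92 and 8.51 CPM of Fgf21 and 235 and 256 CPM of Fgfr1 with 0.664 and 0.486 CPM of Klb, while adipocytes held 127 and 95.8 CPM of Fgfr1 with 40.2 and 45.4 CPM of Klb. The 2 adipocyte sums came from a class with 618 nuclei in all. In the lowest-UMI 10% of mice 4910 and 5300, Fgf21 was at 19.7 and 23.1 CPM and Klb at 1.58 and 1.49 CPM. Both were thus lower in the fibroblasts, whose Klb levels rest on 9 and 2 UMIs, while Klb in adipocytes was higher. Adm2 was at 9.91 and 7.92 CPM in these barcodes, above its level in endothelial cells. The part of free RNA in these levels was not tested. Of the GDF15 receptor genes, Gfral had 6 UMIs in all named nuclei and Ret was highest in fibroblasts at 38.2 ± 10.6 CPM (SD over 8 mice).

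Of 16 further partners of these hormones (other receptors, ligands of the same receptors and enzymes that process or degrade the peptides), 10 were tested in cardiomyocytes, and 1 was called higher and 2 lower (of all genes 7.71% and 5.74%), with a median log2 fold-change of 0.02 against -0.01 over all genes. Fgfr3, another FGF receptor, was higher (1.72 ± 0.354 CPM in WT and 4.09 ± 1.77 CPM in Taz-KO, SD, n = 4; log2 fold-change 1.10, edgeR adjusted p = 0.0278). Fgfr2, a further FGF receptor of this list, was highest in cardiomyocytes, at 1128 ± 586 CPM (SD over 8 mice). Mme, which encodes neprilysin, a peptidase of vasoactive peptides, fell from 22.1 ± 4.5 to 6.33 ± 1.91 CPM (log2 fold-change -1.90, adjusted p = 1.56e-04). Ackr3, an atypical chemokine receptor that also takes up adrenomedullin, fell from 93.6 ± 17.8 to 45.2 ± 18.6 CPM (log2 fold-change -1.16, adjusted p = 0.00699).

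Most of the other listed targets of the integrated stress response were called higher in the same cardiomyocytes. Of 32 listed genes, all were tested, 24 were called higher and none lower, where 7.71% of all genes were called higher, and the median log2 fold-change was 2.01 against -0.01 over all genes. The largest fold-changes were those of Asns, asparagine synthetase (0.68 ± 0.394 CPM in WT and 38.3 ± 11.6 CPM in Taz-KO, SD, n = 4; log2 fold-change 5.71, edgeR adjusted p = 1.98e-05), and Trib3, a pseudokinase that restrains ATF4 (1.82 ± 0.697 and 83.4 ± 30.8 CPM; 5.41, adjusted p = 2.56e-06). Slc7a5, an amino acid transporter, measured 1.2 ± 0.251 and 43 ± 11.9 CPM, and Phgdh, the first enzyme of serine synthesis, 1.08 ± 0.562 and 19.9 ± 6.32 CPM. In mouse 5301, which was lowest in Gdf15 and Fgf21, Asns was at 29.3 and Slc7a5 at 47.2 CPM, inside the range of the other Taz-KO mice. Fewer listed genes were called in fibroblasts (5 of 32), endothelial cells (3 of 31) and macrophages (8 of 31), and 13 of 32 in the lowest-UMI 10%, where 0.251%, 0.12%, 0.282% and 0.644% of all genes were called higher. Whether these counts differ was not tested. Of the 27 listed genes with a promoter in the table, 8 held TGATGNAAN in the 250 bases before a start, among them Asns, Atf3 and Chac1. This is 8 of their 31 promoters, or 25.8%, against 3.44% of all promoters.

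**Figure D5:**
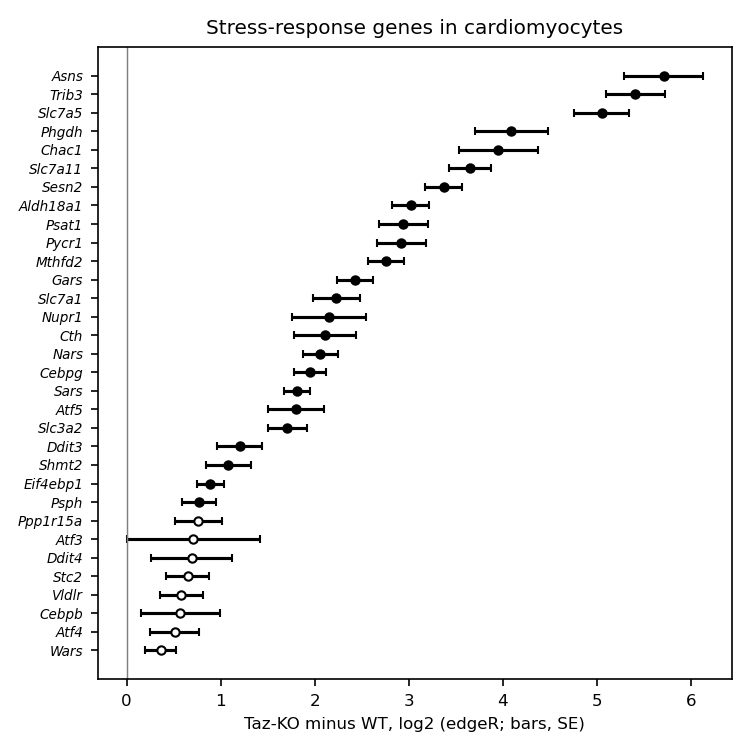
Log2 fold-change between Taz-KO and WT cardiomyocytes with its SE (edgeR, 4 mice per genotype) for the 32 listed targets of the integrated stress response, with filled points at an adjusted p below 0.05. All points lie above 0, from Wars to Asns at 5.71, and 24 are filled.

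Among 20 other secreted factors of the stressed heart, 17 were tested in cardiomyocytes, 2 were called higher and 2 lower (of all genes 7.71% and 5.74%), and the median log2 fold-change was -0.19 against -0.01 over all genes. Ostn, the gene of osteocrin, was at 0.0573 ± 0.0364 CPM in WT and at 33.1 ± 13.4 CPM in Taz-KO (SD, n = 4; edgeR adjusted p = 1.56e-06). Its WT level lay below the limit of the filter on low counts (0.189 CPM). Ostn was thus tested because of its Taz-KO counts, and its call is no independent support. Inhba, which encodes the activin A subunit, rose from 4.55 ± 2.21 to 26 ± 7.81 CPM (log2 fold-change 2.42, adjusted p = 5.54e-04). The growth factor gene Fgf2 fell (log2 fold-change -1.34, edgeR adjusted p = 4.74e-04).

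Genes whose levels followed the hormones were ranked by Pearson's r of log2(CPM + 1) over the 32 sums of 8 mice and 4 main classes, among 20146 genes. For Gdf15 the 5 closest were Mthfd2 (r = 0.97), a mitochondrial one-carbon enzyme, Bex1 (0.96), Ostn (0.94), Asns (0.93) and Sars (0.92), a seryl-tRNA synthetase. For Fgf21 they were Cdsn (0.90), Lonp1 (0.89), a protease of the mitochondrial matrix, Mthfd2 (0.87), Stbd1 (0.87) and Gm49953 (0.86). For Adm2 they were Akr1b7 (0.90), Mthfd2 (0.89), Shisa3 (0.89), Angptl6 (0.88) and Slc7a3 (0.88), an arginine transporter. The hormones themselves had r of 0.89 (Gdf15 with Fgf21 and with Adm2) and 0.80 (Fgf21 with Adm2). Mthfd2 was the only gene in all 3 lists. The 4 sums of a mouse share a library and its free RNA, so that these values are a description only.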

How the data were processed

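Whole hearts of 4 WT and 4 Taz-KO mice were profiled by droplet snRNA-seq (10x Genomics 3′ chemistry). Per the labels and the study's methods, the authors aligned reads to mm10 with Cell Ranger 6.0.1, intronic reads included, and the deposited values are unnormalized UMI counts for each gene in each barcode called as a cell. Their correction for ambient RNA, doublet removal and nuclei filters came later and are not in these counts, so free RNA remains in every sum, and intervals cover counting error only.

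Nuclei with at least 800 UMIs and 250 genes were kept. A nucleus was given a class where the UMIs of that class's typing markers exceeded their share in the library's lowest-UMI 10% (Poisson p below 0.001 and at least 2 times the expected number). Nuclei with signals of more than 1 class (11424) were left out in place of a doublet caller, 77505 had none, and a Schwann cell class failed its check markers and stayed unnamed. The mouse was the replicate. Counts of non-mitochondrial genes were summed per mouse and class (at least 10 nuclei, at least 3 mice per genotype) and went into edgeR 4.0.16 (R 4.3.3) with filterByExpr, TMM factors and a robust quasi-likelihood F test (Benjamini-Hochberg over all genes tested, threshold 0.05), and SEs were derived from the F statistic. Effects and levels between the 4 main classes came from 1 fit with the mouse as a block. Adjusted p-values are from these edgeR fits. The scripts were tested on simulated counts.

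Named genes were the 10 genes, Taz, the markers, of each list the 4 with the largest absolute log2 fold-change among those called in cardiomyocytes, and the 5 best correlates of each hormone among genes with at least 100 UMIs. Gfral, Ret, Fgfr2, Atf3, Chac1, Wars and Vps25 stand outside this rule and were chosen after values were seen. A gene that the rule selects among the secreted factors is not reported here. The gene set, the lists and the markers were chosen with earlier results of these data known. Ddit3 had 2 rows, and the one with the lower p was used. Alternatives were DESeq2 1.42.0, RLE normalization, no filter, each mouse left out, both small libraries left out, other typing rules, and 2 subtractions of ambient RNA. Both subtractions used the profile of the library's lowest-UMI 10%. Of these 16917 barcodes 16348 passed as nuclei, so the profile is not one of empty droplets.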

Additional observations from a re-analysis of the deposited data

Results flagged for a closer look

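In 94 groups of 4 mice, 7 held a value far from the other 3 by Dixon's criterion, and chance gives about 1 in 20. Gdf15 in fibroblasts was 1.34 CPM in Taz-KO mouse 5301 and 48.7 to 57.1 CPM in the other Taz-KO mice, from 2 UMIs in mouse 5301. In WT endothelial cells Gdf15 was 2.94 CPM in mouse 5355 and 0.147 to 0.612 CPM in the others, and Klb in the same cells of that mouse was 1.81 CPM against 0.587 to 0.766 CPM. Fgf21 in WT fibroblasts was 0.0462 CPM in mouse 4686, which is 1 UMI, and 0 in the others. Calcrl in WT fibroblasts was 277 CPM in mouse 5356 and 193 to 196 CPM in the others. Ramp3 was 2.57 CPM in cardiomyocytes of WT mouse 4909 against 1.64 to 1.8 CPM, and 1.26 CPM in macrophages of Taz-KO mouse 5301 against 6.11 to 6.63 CPM.

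The hormones were also present in the nuclei that entered no comparison. In nuclei without a class, the mean over the 4 Taz-KO mice was 76.6 CPM of Gdf15 (14.2 to 142), 10.6 CPM of Fgf21 (0.431 to 16.4) and 6.41 CPM of Adm2 (2.15 to 11.2). WT mice had at most 2.04 CPM of Gdf15, 0.108 CPM of Fgf21 and 0.0123 CPM of Adm2 there, the last from 1 UMI in mouse 4909. In nuclei with signals of more than 1 class the means were 28.1 CPM of Gdf15 (6.89 to 47.1), 4.08 CPM of Fgf21 (0.81 to 7.24) and 2.92 CPM of Adm2 (1.84 to 4.12).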

How the results depend on the processing

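Of 668 values recomputed under the alternatives for 50 results, 595 kept their direction and their side of the threshold or, for counts, stayed within 1.5 times, and the cause of the changes was not tested. The calls of Gdf15, Fgf21, Adm2 and Ramp1 in cardiomyocytes held under every alternative that gave a value, and Fgf21 gave none after the subtraction by mitochondrial UMIs. With an ambient share of 0.2 the log2 fold-changes were 4.58 for Gdf15 and -2.85 for Ramp1. Gdf15 lost its call in fibroblasts without a filter (log2 fold-change 5.35) and with an ambient share of 0.2 subtracted (4.88), and ran from 5.17 to 5.76 with single mice left out. In endothelial cells the same settings gave 5.82 and 5.65, and the range was 5.42 to 7.16. The number of the 10 genes called in fibroblasts (1) became 3 without both small libraries and 0 with longer marker lists (3 of all 11040 genes called) or either subtraction, and 0 to 2 with single mice left out. In endothelial cells (1) it became 2 without a filter, 3 without both small libraries, 0 with stricter typing or either subtraction, and 0 to 3 with single mice left out. In macrophages (2) it became 3 without a filter or without both small libraries, 1 with stricter typing and 0 with either subtraction. Adm in cardiomyocytes turned to 0.15 without both small libraries, 0.04 with an ambient share of 0.2 and 1.01 with the subtraction by mitochondrial UMIs (single mice left out, -0.61 to 0.04), and Ramp2 to 0.27 without both small libraries (-0.33 to 0.31). The difference in the Gdf15 effect between cardiomyocytes and fibroblasts ran from -0.07 to 0.64 with single mice left out and that against endothelial cells from -1.27 to 0.00. After the subtraction by mitochondrial UMIs it was 9.96 against fibroblasts, 9.70 against endothelial cells and 8.64 against macrophages, none called (adjusted p 0.133, 0.25 and 0.331). The level of Gdf15 in cardiomyocytes ran from -0.20 to 0.26 with single mice left out and became 4.89 after that subtraction, after which Gdf15 passed the filter of no other main class, Fgf21 ran from -0.56 to -0.16 and was called at -0.55 without mouse 5301, and Adm2 became 0.13 without a filter and 0.07 with an ambient share of 0.2 (-0.25 to 0.47). Called partner genes in cardiomyocytes (3) were 5 by DESeq2 and 1 with an ambient share of 0.2. Over all genes, DESeq2 called 326 in fibroblasts (edgeR 50), 154 in endothelial cells (27) and 341 in macrophages (120). By edgeR these counts ran from 8 to 100, 3 to 88 and 24 to 287 with single mice left out, highest without Taz-KO mouse 5301 in each class and lowest without mouse 4910 (mouse 5300 in macrophages), and were 4, 4 and 1 with an ambient share of 0.2 and 0 in each after the subtraction by mitochondrial UMIs. In cardiomyocytes edgeR called 2586, 1478 with an ambient share of 0.2 and 1627 without WT mouse 4909. No paired analysis was possible because the groups share no replicate number. Depth limits mice 4685 and 5301 most, with 27 and 2 Gdf15 UMIs in endothelial cells.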
